A study of Mus musculus with 36 samples.

Results

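Chromatin accessibility was examined at 9 genes of MHC class I antigen presentation in mouse bone marrow-derived dendritic cells stimulated through pattern recognition receptors. The members were all ATAC-seq peaks that overlap H2-K1, H2-D1, B2m, Tap1, Tap2, Tapbp, Psmb8, Psmb9 or Nlrc5, or lie within 10 kb of either end of these genes, on the mouse mm10 build. The rule uses position and no measured value, though the genes were chosen with earlier results of these data known. They numbered 73 of the 119751 peaks in the series. Of these, 71 passed a filter on low counts and were tested, among 119464 tested peaks in all. A peak near H2-D1 and a peak near Tapbp did not pass. Nlrc5 had 21 member peaks, Tapbp 15, B2m 14, H2-D1 7, H2-K1 5 and Psmb9 4, while Tap1, Tap2 and Psmb8 had 8 each. Psmb9, Tap1, Psmb8 and Tap2 lie side by side on chromosome 17, and 9 peaks were within reach of 2 or more member genes and are counted once.

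ATAC-seq uses a transposase that inserts adapters into open chromatin, so the read count in a peak is a measure of its accessibility. All groups were cells grown with GM-CSF at 15 ng/ml from bone marrow of female C57BL/6J mice aged 6 to 8 weeks, and differed in the ligands given for 6 h. Each of the 18 groups had 2 libraries: an unstimulated control (Ctrl), 6 single ligands, 8 pairs and 3 triplets. The ligands, with the letters used for them here, were depleted zymosan (Z), a preparation of yeast cell wall, the cyclic dinucleotide 3',3'-cGAMP (cG), the bacterial cell wall component LPS (L), and those the labels call PAM (P), SeV (S) and HMW (H). Letters put together name a combination. The labels do not say whether the 2 libraries of a group came from separate mice or cultures, so p-values measure the spread between these libraries, which may be technical. Bone marrow cultures with GM-CSF hold a mixture of myeloid cells, and a change in the makeup of the cells cannot be told apart from a change within them.

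MHC class I molecules show peptides from inside the cell to CD8 T cells. The proteasome cuts proteins into peptides, the transporter of Tap1 and Tap2 carries them into the endoplasmic reticulum, and tapasin holds an empty heavy chain with beta-2 microglobulin beside the transporter until a peptide is bound. Dendritic cells use this route both for their own proteins and, in cross-presentation, for proteins they have taken up. In the same genes of many cell types, transcription is known to rise with interferon, through ISRE elements, and to depend on the transactivator NLRC5, which acts at a promoter module that holds an X box, a CRE-like box and an inverted CCAAT box.

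The promoters of 4 genes are shown because their start sites lie under peaks that the results turn on. They are the 250 bases before the start site, from RefSeq on GRCm38.p6, in lower case with matches to the motifs named below in capitals.
H2-K1, chr17:34000348-34000597, minus strand: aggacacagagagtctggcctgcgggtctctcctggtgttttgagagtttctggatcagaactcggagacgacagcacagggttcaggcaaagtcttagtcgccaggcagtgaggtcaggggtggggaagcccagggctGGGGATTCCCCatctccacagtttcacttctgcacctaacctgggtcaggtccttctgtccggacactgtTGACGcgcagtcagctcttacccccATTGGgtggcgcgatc
H2-D1, chr17:35262844-35263093, plus strand: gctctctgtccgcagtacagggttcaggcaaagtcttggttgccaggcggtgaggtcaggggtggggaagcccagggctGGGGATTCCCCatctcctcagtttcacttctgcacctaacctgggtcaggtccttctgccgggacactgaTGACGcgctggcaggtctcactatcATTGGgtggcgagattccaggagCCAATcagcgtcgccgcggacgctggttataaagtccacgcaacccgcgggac
B2m, chr2:122147437-122147686, plus strand: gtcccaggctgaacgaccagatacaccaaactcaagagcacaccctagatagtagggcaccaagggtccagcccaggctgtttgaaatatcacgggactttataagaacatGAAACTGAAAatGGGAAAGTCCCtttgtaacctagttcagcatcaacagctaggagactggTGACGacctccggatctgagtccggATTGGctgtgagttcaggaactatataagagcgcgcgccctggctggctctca
Tap1, chr17:34187306-34187555, plus strand: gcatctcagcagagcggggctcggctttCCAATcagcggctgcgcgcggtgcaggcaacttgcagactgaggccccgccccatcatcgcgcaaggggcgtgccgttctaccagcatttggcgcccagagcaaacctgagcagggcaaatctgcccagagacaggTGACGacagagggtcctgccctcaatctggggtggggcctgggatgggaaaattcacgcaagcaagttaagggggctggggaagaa

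The motifs were searched as letters on both strands: the ISRE core, which is GAAA, any 2 bases and GAAA, the GAS element TTCNNNGAA, the NF-kappaB element, which is GGGA, any 4 bases and CC, the inverted CCAAT box ATTGG, the CRE TGACGTCA and the CRE-like TGACG, which is contained in the CRE. Of the 7 member genes with a promoter in the table, B2m alone held an exact match to the ISRE core letters, which 2.97% of 32817 mouse promoters of this length hold. The NF-kappaB letters were in B2m, H2-K1 and H2-D1 and in 17.6% of all promoters. TGACG was in B2m, H2-K1, H2-D1, Tap1 and Psmb9 (17.7% of all promoters), ATTGG in all of the 7 but Psmb8 (33.8%), and TTCNNNGAA in Psmb8 alone (7.01%). The whole CRE was in none of the 7 windows (1.55%). The H2-K1 and H2-D1 promoters share an identical stretch of 47 bases around GGGGATTCCCC, and the Tap1 and Psmb9 windows overlap by 225 bases on opposite strands, since these genes start 226 bases apart. A match describes the letters and is not evidence of binding. Sequences that differ from the letters by a base are not counted, so the lack of a match does not show that a promoter lacks the element.

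The libraries held 19097027 to 39977088 counts, of which a single peak over the mitochondrial genome took 44.1% to 63.1%. This share split the groups: it was 57.3% to 63.1% in the 10 libraries of control, Z, ZcG, ScG and ZScG and 44.1% to 58.1% in the 26 libraries of the other 13 groups. Scaling factors by TMM were 0.807 to 0.921 in the first and 0.916 to 1.14 in the second. The 2 ranges overlap through ZS, whose libraries held 58.1% and 51%. For the 13 groups against control, stimulation and mitochondrial share cannot be told apart. Z, ZcG, ScG and ZScG against control do not cross the split, nor do comparisons among the 13 that leave out ZS. All 10 dendritic and myeloid marker genes had a peak at their start, with summed levels of 207 to 272 CPM per library (CPM is the read count scaled to a common library size), as had all 4 macrophage genes (138 to 177 CPM, control 173 to 177). Of neutrophil, T cell, B cell and mast cell genes, 1 of 5, 2 of 5, 1 of 5 and 0 of 3 had a peak. Their summed levels were 6.37 to 21.7 (control 17.2 to 20.5), 4.46 to 11.2 (control 4.7 to 6.76), 1.45 to 4.82 (control 4.26 to 4.73) and 0 CPM. The part of these levels in the results was not tested.

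Accessibility at the member peaks rose far more often than it fell. Over the 17 stimulations against control, 379 of 1207 tests of member peaks were called higher and 12 lower, where called means a Benjamini-Hochberg adjusted p under 0.05 over all tested peaks in edgeR's quasi-likelihood test. These comparisons share the 2 control libraries. In all, 51 of 71 peaks were called higher in at least 1 stimulation, 5 other peaks were called lower in at least 1, and 15 were called in none. The share of all tested peaks called in at least 1 stimulation was not counted, so these counts describe the members and are not set against a background. The single ligands fell into unequal groups. With cG, 31 of 71 member peaks were called higher and 1 lower, against 11.6% higher and 11.6% lower among all tested peaks. With S, 29 were higher and 1 lower (all peaks 14.1% and 13.8%), and with L, 27 and 1 (11.3% and 11.1%). H gave 15 higher and 0 lower (5.23% and 5.44%). Z gave 5 and 0 (4.16% and 1.75%). P gave 7 and 0 (11.1% and 9.41%), so the share of member peaks higher with P, 9.86%, was near that of all peaks. The median log2 fold change of the member peaks was 0.81 with cG, 0.75 with L, 0.73 with S, 0.61 with H, 0.18 with Z and 0.08 with P, while the medians over all tested peaks were close to 0.

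The combinations were counted in the same way. PL gave 19 member peaks higher and 1 lower (all peaks 13.8% and 13.5%), PH 10 and 2 (13.6% and 12.8%), and LH 18 and 1 (11.3% and 10.4%). PS gave 24 and 0 (17.3% and 16.2%), PcG 26 and 0 (16.8% and 16.2%), ScG 25 and 1 (14.4% and 13.3%), ZS 32 and 2 (14.4% and 14%), and ZcG 21 and 0 (11.4% and 10.3%). Among the triplets, PLH gave 23 and 0 (14.9% and 14.7%), PScG 35 and 1 (19% and 18.1%), and ZScG 32 and 1 (16.2% and 16.1%). In either direction, 36 of 71 were called with PScG, against 37.1% of all peaks. With PH the share called higher, 14.1%, was close to that of all peaks, while the share called lower was 2.82% against 12.8%. Where no member was called lower (P, H, Z, PS, PcG, ZcG and PLH), 0 to 3 had an unadjusted p under 0.05 in that direction with edgeR, and DESeq2 called 0.

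**Figure D1:**
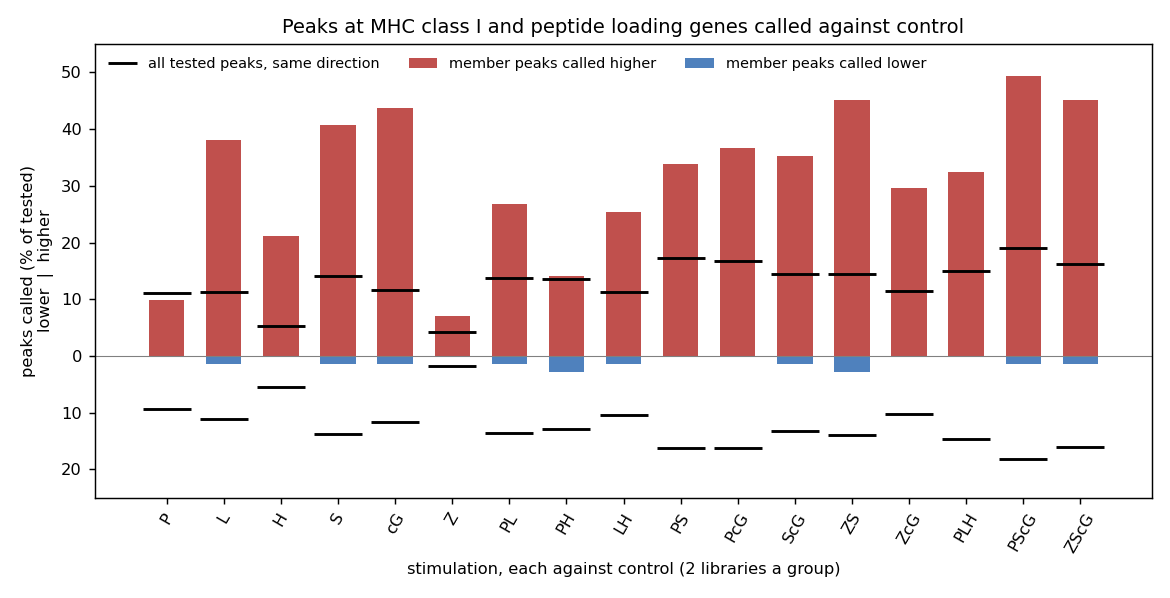
Share of the 71 tested member peaks called higher (red, up) or lower (blue, down) in each stimulation against control, in percent, with the share of all 119464 tested peaks in the same direction as black lines. The higher share was 43.7% with cG and 9.86% with P, against 11.6% and 11.1% of all peaks.

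The counts depended on the first control library. Without it, all 17 shares of called member peaks fell by more than 1.5 times, with 211 higher and 5 lower calls in 1241 tests (73 member peaks then pass the filter), against 323 and 8 without the second control library. Without the first, 19 of 73 member peaks were higher with cG (7.68% of all peaks), 18 with S (9.66%), 11 with L (7.13%), 6 with H (2.56%), 4 with P (7.88%) and 2 with Z (2.27%). In the same fit the higher counts were 11 with PL (9.86%), 5 with PH (9.97%), 8 with LH (7.6%), 16 with PS (12.4%), 15 with PcG (11.8%), 14 with ScG (10.3%), 20 with ZS (9.25%), 12 with ZcG (7.71%), 13 with PLH (10.4%), 17 with PScG (13.8%) and 20 with ZScG (11.1%). Leaving out a stimulated library, which also leaves 73 member peaks tested in these fits, moved the share called in either direction by more than 1.5 times for P (from 9.86% to 5.48% without P replicate 1), L (39.4% to 26.0% without replicate 1), H (21.1% to 5.48% without replicate 1 and 13.7% without replicate 2), Z (7.04% to 4.11% without replicate 2), PH (16.9% to 9.59% without replicate 1), LH (26.8% to 17.8% without replicate 1), ZcG (29.6% to 17.8% without replicate 2) and PScG (50.7% to 28.8% without replicate 1). Comparing L, H, S and cG with P in place of control, which uses no control library and stays within the 13 groups of lower mitochondrial share, gave 27 member peaks higher and 1 lower with cG (all peaks 11.1% and 12.7%), 25 and 1 with S (11.6% and 12.9%), 17 and 1 with L (5.18% and 5.9%) and 15 and 1 with H (4.95% and 7.18%).

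The 8 peaks at or nearest the start of the member genes were among the stronger ones, with a median of 28.9 CPM over all libraries. Of these 8, 7 were called higher with S and with cG, 6 with L, 4 with H, 1 with Z and 0 with P, where edgeR gave 0 at an unadjusted p under 0.05 and DESeq2 called 0. Of 29 other peaks over the gene bodies, 11 were higher with S and 10 with cG, and of 34 peaks in the flanks, 11 and 14. Among all tested peaks, 14.1% were higher with S and 11.6% with cG. The gains were thus not confined to the starts of the genes. The peaks over the bodies and in the flanks were weaker, with medians of 1.42 and 2.21 CPM. A change is harder to call in weak peaks, and no share of all peaks of like strength is given here. The shares called are therefore not compared between these positions. The 12 lower calls came from 5 peaks, and 7 of them from a peak over Daxx and Zbtb22 in the Tapbp flank (chr17:33915574-33916651), chosen after its values were seen, which held 27.1 and 25.9 CPM in control and 17.2 and 19.5 with L.

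**Figure D2:**
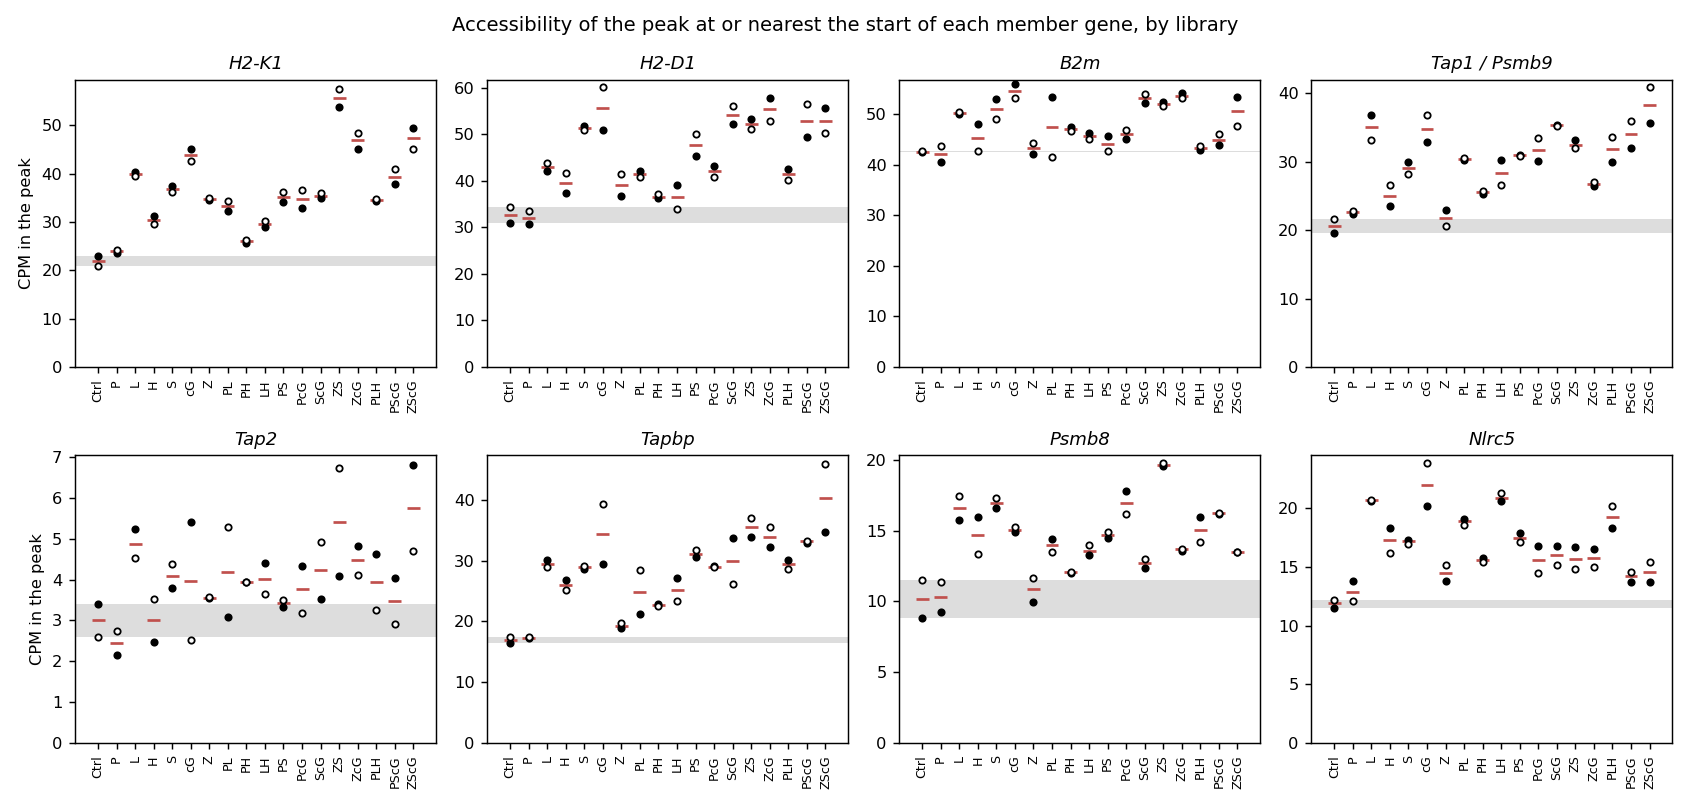
CPM in the peak at or nearest the start of each member gene, in all 36 libraries (filled, replicate 1; open, replicate 2; red line, mean of the 2; grey band, range of the control libraries). In H2-K1 the control libraries sit at 20.9 and 23.0 CPM and the ZS libraries at 53.8 and 57.6 CPM, whereas in B2m many stimulated libraries overlap or nearly touch the control range.

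H2-K1 and H2-D1 encode the classical class I heavy chains, whose groove holds the peptide. The start of H2-K1 lies under a peak of 2134 bases at chr17:33998776-34000909, which reaches from inside the gene to beyond its 5′ end. Control libraries held 23.0 and 20.9 CPM there, P 23.5 and 24.3, L 40.4 and 39.6, H 31.3 and 29.5, S 37.4 and 36.2, cG 45.1 and 42.6, and Z 34.5 and 35. Among pairs, PL held 32.2 and 34.3, PH 25.7 and 26.2, LH 28.9 and 30.2, PS 34.2 and 36.3, PcG 32.9 and 36.7, ScG 35 and 35.9, ZS 53.8 and 57.6, and ZcG 45.2 and 48.5. The triplets held 34.4 and 34.7 (PLH), 37.9 and 40.9 (PScG) and 49.4 and 45.2 CPM (ZScG). Both libraries of all 17 stimulations were above both control libraries, ZS was above all other groups, and in the order of group means 7 of the 17 neighbouring pairs overlapped. The log2 fold change against control was 1.34 ± 0.118 (SE) with ZS (adjusted p = 1.31e-20), 1.0 ± 0.118 with cG (8.81e-13), 0.87 ± 0.117 with L (3.94e-10), 0.74 ± 0.118 with S (5.87e-08), 0.66 ± 0.123 with Z (3.31e-05) and 0.47 ± 0.12 with H (0.00352), and it was 0.12 ± 0.122 with P, which was not called.

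H2-K1 was called higher in 15 of 17 stimulations, and 13 of these calls held under all alternatives run, the exceptions being H and LH. Without the second control library these had log2 values of 0.4 and 0.36 with adjusted p = 0.0802 and 0.0867, and without H replicate 1 that of H had adjusted p = 0.0631. Against P, the peak was higher by 0.88 ± 0.113 with cG, 0.74 ± 0.112 with L, 0.62 ± 0.113 with S and 0.35 ± 0.115 with H (adjusted p = 3.75e-11, 6.15e-08, 2.66e-06 and 0.028). The call with Z does not cross the split in mitochondrial share.

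The start of H2-D1 lies under a peak of 2133 bases at chr17:35262444-35264576. Control libraries held 31.0 and 34.4 CPM, P 30.7 and 33.4, L 42.0 and 43.8, H 37.4 and 41.7, S 51.7 and 50.9, cG 50.8 and 60.2, and Z 36.7 and 41.5. The combinations ranged from 34.0 CPM in an LH library to 57.7 in a ZcG library. P and LH overlapped the control libraries, the other groups lay above them, and 15 of 17 neighbouring pairs in the order of group means overlapped. The log2 fold change was 0.76 ± 0.109 with cG (adjusted p = 3.61e-09), 0.65 ± 0.109 with S (3.7e-07) and 0.39 ± 0.11 with L (0.00408), and those of H, Z and P (0.27, 0.26 and -0.03) were not called. It was called in 12 of 17 stimulations, of which L, PL, PcG and PLH were lost without the first control library (log2 0.32, 0.28, 0.3 and 0.28 with adjusted p = 0.0953, 0.137, 0.0977 and 0.137). Heavy chain genes are near-identical copies in part, as the shared promoter stretch shows, and how reads that match several of them were counted is not given in the sources used here, so values of single heavy chain genes are uncertain.

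B2m encodes beta-2 microglobulin, the light chain that all class I heavy chains need. Its start peak, 3028 bases at chr2:122146635-122149662, also overlaps Patl2 and changed little. Control libraries held 42.5 and 42.7 CPM, P 40.6 and 43.8, L 50.0 and 50.5, H 48.2 and 42.7, S 53.0 and 49.1, cG 56.1 and 53.3, and Z 42.2 and 44.3. The combinations held 41.6 to 54.3 CPM, P, H, Z, PL and PS had a library at or below the higher control library, and all 17 neighbouring pairs in the order of group means overlapped. The peak was called with S (log2 0.26 ± 0.104, adjusted p = 0.0491), cG (0.36 ± 0.105, 0.00579), ScG (0.32), ZS (0.29) and ZcG (0.33). Each of these 5 calls was lost when some single library was left out: without the first control library S, ScG, ZS and ZcG had adjusted p = 0.138, 0.0644, 0.111 and 0.0675, and without cG replicate 1 cG had 0.0603.

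A second B2m peak, 2946 bases at chr2:122155202-122158147, begins 2120 bases past the end of B2m inside Patl2. Of the B2m peaks it differed most over the 18 groups (highest F statistic) and was named for that, so its tests are not independent of the choice. Control libraries held 23.6 and 23.2 CPM, P 21.2 and 19.0, L 35.9 and 39.9, H 27.8 and 30.7, S 40.2 and 39.7, cG 40.8 and 38.4, and Z 24.5 and 28.3. The combinations held less than L, S or cG alone: PL 23.0 and 20.7, PH 21.9 and 18.3, LH 33.4 and 24.3, PS 34.4 and 30.2, PcG 26.0 and 29.6, ScG 28.6 and 23.4, ZS 26.2 and 21.3, and ZcG 26.3 and 25.2. The triplets held 26.7 and 19.0 (PLH), 25.5 and 27.8 (PScG) and 28.3 and 17.9 CPM (ZScG). All libraries of L, S and cG were above all libraries of the combinations. The log2 fold change against control was 0.77 ± 0.134 with S (adjusted p = 9.34e-07), 0.76 ± 0.135 with cG (2.5e-06) and 0.7 ± 0.134 with L (1.45e-05). PS was also called, at 0.46, and had adjusted p = 0.0743 without PS replicate 1, while LH was not called but was with LH replicate 2 left out (0.51, 0.0139).

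Tap1 encodes a subunit of the peptide transporter and Psmb9 a catalytic subunit of the inducible proteasome. They are transcribed away from each other, and a peak of 1657 bases at chr17:34186720-34188376 covers both starts. Control libraries held 19.6 and 21.6 CPM, P 22.4 and 22.8, L 36.8 and 33.2, H 23.5 and 26.6, S 30.0 and 28.2, cG 32.9 and 36.8, and Z 23.0 and 20.6. The combinations ran from 25.2 CPM in a PH library to 40.9 in a ZScG library. All stimulations but Z lay above both control libraries, and 12 of 17 neighbouring pairs in the order of group means overlapped. The log2 fold change was 0.76 ± 0.124 with L (adjusted p = 2.25e-07), 0.76 ± 0.126 with cG (3.22e-07), 0.5 ± 0.126 with S (0.000986) and 0.89 ± 0.129 with ZScG (3.19e-09), and those of H, P and Z (0.28, 0.13 and 0.07) were not called. It was called in 13 of 17 stimulations, of which LH and ZcG were lost without the first control library (0.41 and 0.32, adjusted p = 0.0655 and 0.185). Against P, cG gave 0.63 ± 0.12 and L 0.63 ± 0.119 (adjusted p = 1.1e-05 and 2.4e-05).

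Psmb8 encodes another catalytic subunit of the inducible proteasome. Its start peak, 1514 bases at chr17:34197345-34198858, held 8.85 and 11.5 CPM in control, 9.25 and 11.4 with P, 15.8 and 17.5 with L, 16 and 13.4 with H, 16.6 and 17.3 with S, 14.9 and 15.3 with cG, and 9.97 and 11.7 with Z. P and Z overlapped the control libraries and the other 15 groups lay above them. The largest change was with ZS, at log2 0.95 ± 0.172 (adjusted p = 3.22e-06), followed by PcG (0.74), S (0.73 ± 0.169, 0.000243) and L (0.71 ± 0.169, 0.000562). Of its 10 calls, 7 (L, H, cG, PL, PS, PLH and PScG) were lost without the first control library, where adjusted p ran from 0.0554 with PScG to 0.342 with PL, and those with S, PcG and ZS held under all alternatives run.

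Tap2 encodes the other subunit of the transporter. The peak at its lower-coordinate end, 620 bases at chr17:34204223-34204842, was weak, with 3.39 and 2.6 CPM in control and 2.14 to 6.81 CPM in the stimulated libraries. It was called with ZS (0.87 ± 0.333, adjusted p = 0.0376) and ZScG (0.96 ± 0.338, 0.0199), and both calls were lost without the second control library (0.232 and 0.16). A peak inside the gene, 793 bases at chr17:34210258-34211050, showed a stronger split between ligands. It was named for the highest F statistic over the 18 groups of the Tap2 and Psmb8 peaks, so its tests are not independent of that choice. Control libraries held 2.4 and 2.03 CPM there, P 1.68 and 3.75, L 3.39 and 2.86, H 2.48 and 2.93, S 6.8 and 5.66, cG 7.16 and 5.37, and Z 3.02 and 2.83. Groups with S or cG held 4.39 to 10.6 CPM, while groups made of P, L, H or Z alone or in pairs held 1.68 to 3.87, so these ranges did not overlap. PLH, which has neither S nor cG, held 7.37 and 4.94 CPM. The log2 fold change was 1.49 ± 0.316 with S (adjusted p = 6.02e-05), 1.5 ± 0.319 with cG (9.23e-05), 2.23 ± 0.316 with ZScG (1.45e-09) and 0.49 ± 0.338 with L, which was not called. Against P, it was 1.18 ± 0.288 with S and 1.19 ± 0.292 with cG (adjusted p = 0.000642 and 0.000757). Of its 10 calls, PcG was lost without the second control library (0.98, adjusted p = 0.0648).

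**Figure D3:**
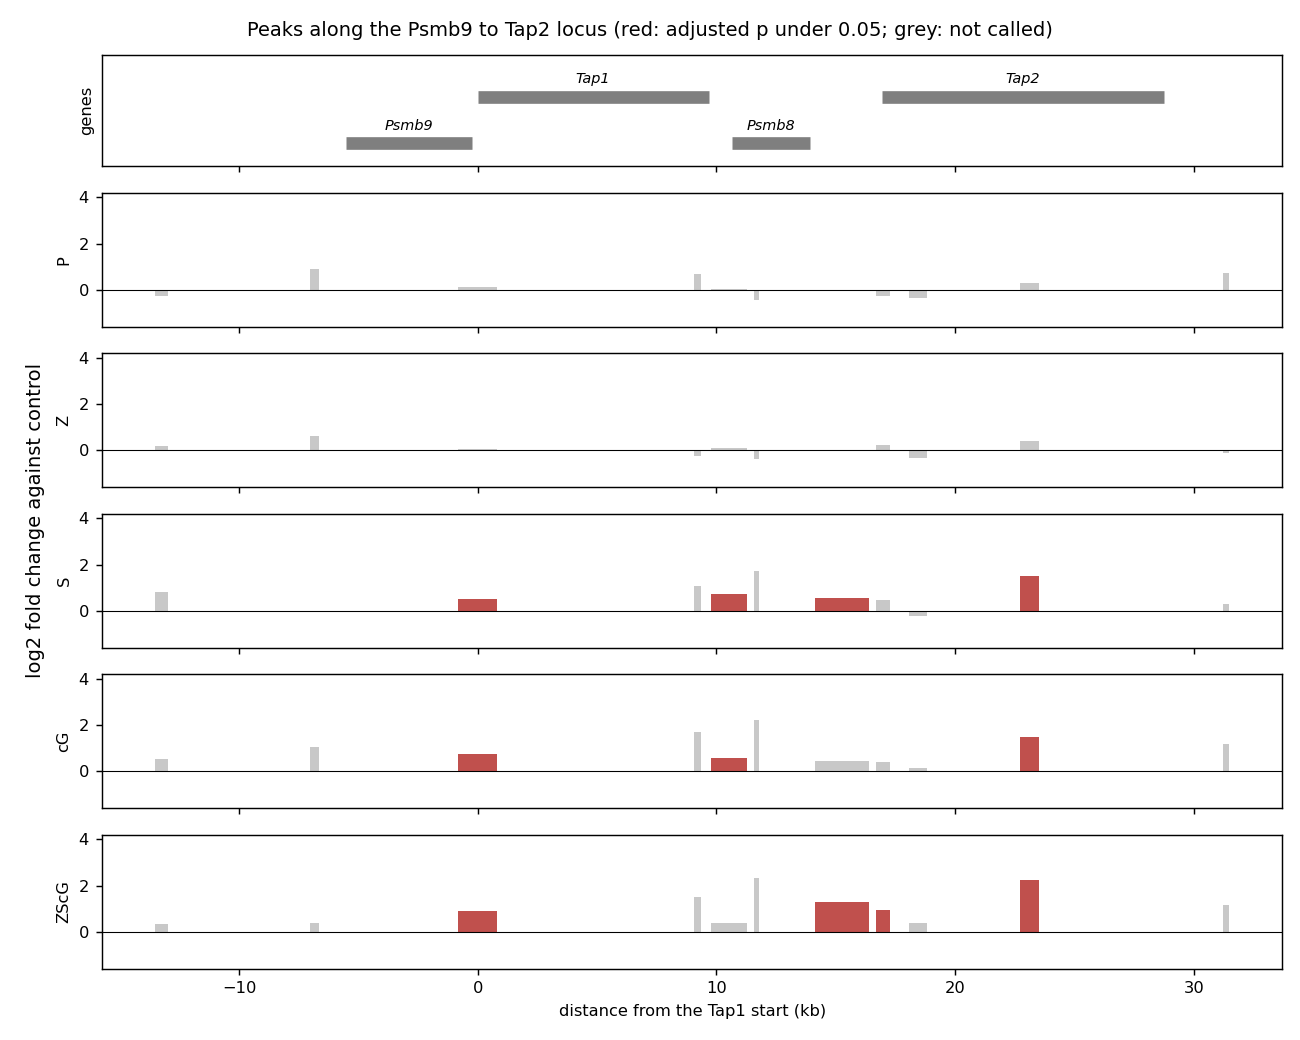
Log2 fold change against control of the peaks along the Psmb9, Tap1, Psmb8 and Tap2 genes by distance from the Tap1 start in kb, for P, Z, S, cG and ZScG, with bars as wide as the peaks and red for an adjusted p under 0.05. No bar is red with P or Z, while the peak over the Tap1 and Psmb9 starts and that inside Tap2 are red with S, cG and ZScG, where the latter reaches 2.23.

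Tapbp encodes tapasin, which bridges the empty heavy chain and the transporter. Its start peak, 2799 bases at chr17:33918370-33921168, also overlaps Zbtb22 and Gm19412. Control libraries held 16.4 and 17.4 CPM, P 17.2 and 17.5, L 30.1 and 28.9, H 26.9 and 25.2, S 28.6 and 29.2, cG 29.5 and 39.3, and Z 18.9 and 19.7. ZScG was highest, at 34.8 and 45.9 CPM, and P overlapped the control libraries while the other 16 groups lay above them. In log2 terms the change was 1.25 with ZScG, 1.03 with cG, 0.8 with L, 0.77 with S and 0.63 with H, all called, and 0.19 with Z and 0.04 with P, which were not. Of its 15 calls, PH was lost without the first control library (0.42, adjusted p = 0.0732) and PL without PL replicate 2 (0.36, 0.116). The peak with the highest counts near Tapbp, at chr17:33908426-33911079 over BC051226 and Daxx in its flank, held 45.4 and 44.2 CPM in control and 74.9 and 76.9 with cG, and was also called in 15 stimulations, all but P and Z. Of these calls, H was lost without H replicate 1 (0.25, adjusted p = 0.236) and without the second control library (0.34, 0.0743). With ZScG, 11 of 14 tested Tapbp peaks were called higher, against 16.2% of all peaks. Several peaks near this gene were weak, and 5 of the 9 member peaks with 3 or fewer control counts lay here. These 5 were among the 11, so part of that count rests on very few control counts.

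Nlrc5 encodes the transactivator of class I genes, and its locus is the longest of the members. The peak at its lower-coordinate end, 1411 bases at chr8:94433207-94434617, also overlaps 9330175E14Rik. Control libraries held 11.5 and 12.2 CPM, P 13.8 and 12.1, L 20.6 and 20.7, H 18.3 and 16.2, S 17.3 and 17, cG 20.2 and 23.9, and Z 13.8 and 15.2. P overlapped control and the other 16 groups lay above it. Against control the log2 fold change was 0.89 with cG, 0.8 with L, 0.54 with H, 0.53 with S, 0.29 with Z and 0.12 with P, of which those of Z and P were not called. In contrast to the heavy chain starts, the triplets PScG and ZScG were low here, at 13.7 and 14.6 and at 13.7 and 15.4 CPM, and neither was called (0.26 and 0.29). Of its 10 calls, H, S, PcG and ScG were lost without the first control library (adjusted p = 0.123, 0.0592, 0.171 and 0.158).

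Past the other end of Nlrc5, a peak of 2042 bases at chr8:94529613-94531654, 2341 bases from the gene, was the member called higher in all 17 stimulations. The peak overlaps no gene and lies between Nlrc5 and Cpne2, so it is assigned to Nlrc5 by position alone. It was named for the highest F statistic over the 18 groups of the Nlrc5 peaks, so its tests are not independent of that choice. Control libraries held 8.74 and 10.6 CPM, P 21.5 and 19.8, L 18.4 and 18.2, H 19.2 and 19.6, S 22.4 and 18.9, cG 21.4 and 25.4, and Z 17.6 and 15.7. Both control libraries were below all 34 stimulated libraries, of which the lowest held 15.4 CPM. Its log2 fold change was 1.27 ± 0.155 with cG, 1.09 ± 0.156 with P, 1.09 ± 0.155 with S, 1.0 ± 0.157 with H, 0.91 ± 0.156 with L and 0.77 ± 0.167 with Z. Unlike the start peaks, it was called with P, and against P the changes with L, H, S and cG were -0.17 to 0.18, none of which was called. Z was not tested against P. The call with Z was lost without the first control library (0.63, adjusted p = 0.0574), and the other 16 held under all alternatives run. Its neighbour over Cpne2 (chr8:94531921-94533742), which had the highest counts of the Nlrc5 peaks, held 19.4 and 17.7 CPM in control and 29.1 and 30.6 with cG. It was called with cG (0.69) and PScG (0.66) under all alternatives run, and its 5 other calls were each lost when some single library was left out.

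Inside Nlrc5, a peak at chr8:94503905-94504361, over Gm51584 and chosen after its values were seen, had 2 and 1 counts in control. It had 41 and 51 counts with ZS, a ratio of 29.7 (exact 95% interval 9.85 to 147), 25 and 51 with S (15.7, 5.18 to 77.9), 15 and 28 with cG (10.5, 3.38 to 53.1), 12 and 17 with Z (11, 3.41 to 56.4) and 3 and 11 with P (3.38, 0.943 to 18.3). All groups but P were called higher. With so few control counts the intervals are wide, and they cover counting error alone. Over the Nlrc5 locus, 12 of 21 peaks were called higher with cG (all peaks 11.6%), 11 with S (14.1%), 7 with L (11.3%), 4 with P (11.1%) and 4 with H (5.23%).

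**Figure D4:**
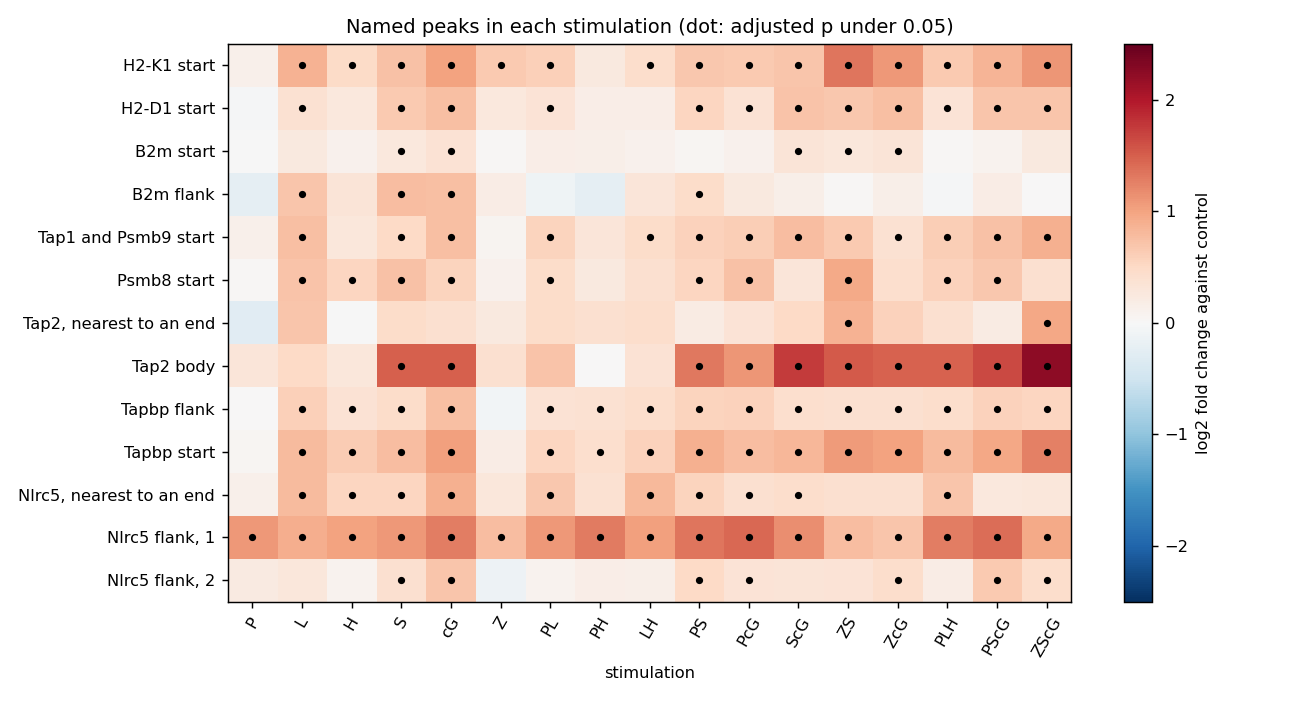
Log2 fold change against control (colour) of the 13 named peaks in the 17 stimulations, with a dot where the adjusted p is under 0.05. The columns of P and Z hold 1 and 2 dots, the first Nlrc5 flank peak has a dot in all 17 columns, and the peak inside Tap2 reaches 2.23 in ZScG.

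The pairs show what a second ligand adds to the first. Adding S or cG to P raised many member peaks: PS was higher than P at 18 of 71 and lower at 0 (all peaks 9.32% and 8.82%; unadjusted 2 lower, DESeq2 0), and PcG was higher than P at 19 and lower at 0 (7.37% and 7.38%; unadjusted 0, DESeq2 0). PL was higher than P at 8 and lower at 1 (4.16% and 4.31%), and PH at 2 and 0 (1.69% and 0.982%). The H2-K1 start peak rose by 0.56 ± 0.112 from P to PS, 0.54 ± 0.112 from P to PcG and 0.47 ± 0.116 from P to PL (adjusted p = 3.56e-05, 0.000124 and 0.00237). The Tapbp start peak rose by 0.85 ± 0.127, 0.74 ± 0.128 and 0.5 ± 0.134 in the same comparisons (2.74e-08, 2.58e-06 and 0.00617). These comparisons do not cross the split in mitochondrial share and share the P libraries.

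Adding P to the other ligands lowered more members than it raised where a change was called. Against cG alone, PcG was lower at 5 member peaks and higher at 1 (all peaks 3.52% and 5.59%). The lower ones included the starts of H2-K1 (-0.34 ± 0.108, adjusted p = 0.0291) and H2-D1 (-0.4 ± 0.103, 0.00376), the Nlrc5 end peak (-0.49 ± 0.143, 0.0136) and the B2m flank peak (-0.51 ± 0.127, 0.00268). PH was lower than H at 6 and higher at 1 (2.29% and 5.27%), and PL was lower than L at 1, the B2m flank peak (-0.79 ± 0.132, 2.32e-05; all peaks 0.366% lower, 0.765% higher). PS differed from S at 0 member peaks (2.44% higher, 0.494% lower; edgeR unadjusted 2 higher and 5 lower, DESeq2 0), and LH from L at 0 (0.0251% and 0.0352%; unadjusted 1 higher and 13 lower, DESeq2 1 lower). LH was higher than H at 2 and lower at 0 (2.65% and 1.13%). In the directions with 0 calls over the 16 comparisons of a pair with a single ligand, edgeR gave 0 to 13 members at an unadjusted p under 0.05 and DESeq2 called 0, except for 1 in LH against L.

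Zymosan was compared as an addition to S and cG. ZS was higher than S at 5 members and lower at 1 (all peaks 1.52% and 1.01%), and the H2-K1 start peak rose by 0.6 ± 0.108 from S to ZS (adjusted p = 4.46e-05), while the B2m flank peak fell by 0.76 on the log2 scale (2.95e-05). ZcG was higher than Z at 8 and lower at 0 (4.13% and 4.95%; unadjusted 1 lower, DESeq2 0), with the H2-D1 start peak at 0.49 ± 0.112 (adjusted p = 0.000833) and the Tapbp start peak at 0.81 ± 0.139 (3.91e-06). Across the split in mitochondrial share, ZS was higher than Z at 21 and lower at 0 (6.63% and 8.53%), ZcG lower than cG at 4 and higher at 0 (1.05% and 1.82%), ScG lower than S at 1 and higher at 0 (0.102% and 0.479%), and ScG lower than cG at 3 and higher at 0 (1.91% and 3.03%). In these 4 comparisons the ligand and the mitochondrial share cannot be told apart. ZS (58.1% and 51%) also differed in this share from S (47.1% and 48.7%), so the same limit holds for ZS against S.

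An interaction is the difference between the pair's log2 change and the sum of the changes of its 2 ligands. All 55 interactions called at member peaks, of 568 tests over 8 pairs, were below that sum, and 0 were above it, where 8 had an unadjusted p under 0.05 and DESeq2 called 0. ScG gave 23 (7.52% of all peaks below and 6.93% above the sum) and LH 15 (2.62% and 2.26%). ZcG gave 6 (1.74% and 0.753%), ZS 4 (2.61% and 0.825%), PL 2 (4.2% and 2.56%), PS 2 (2.91% and 1.67%), PcG 2 (2.18% and 1.09%) and PH 1 (1.09% and 0.465%), of which those of PL, PS, PcG and PH were near or below the background. In all pairs but ZS the interaction does not balance the split in mitochondrial share, and the ligands and that share cannot be told apart. The balance in ZS is partial, since its libraries held 58.1% and 51%. Leaving out the first control library, which enters all 8, left 33 calls, and leaving out any other single library gave 46 to 58.

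At the H2-K1 start peak the interaction was -1.05 ± 0.162 in ScG (adjusted p = 9.16e-08) and -0.91 ± 0.162 in LH (3e-05), where the pair lay below the larger of its singles. The Tapbp start peak had -0.97 ± 0.185 and -0.85 ± 0.185 in the same pairs (2e-05 and 0.00112), the H2-D1 start peak -0.68 ± 0.151 and -0.5 ± 0.153 (0.000316 and 0.0335), the Psmb8 start peak -0.98 ± 0.238 and -0.83 ± 0.232 (0.00117 and 0.0169), and the Tap1 and Psmb9 start peak -0.48 ± 0.173 and -0.57 ± 0.173 (0.0458 and 0.0302). The B2m flank peak had the lowest adjusted p of the named peaks, with -1.37 ± 0.189 in ScG (2.57e-09), and was also called in LH (-0.7), ZS (-0.93) and ZcG (-0.8). The first Nlrc5 flank peak was called in all 8 pairs, from -0.8 in PH to -1.34 in ZcG: all single ligands raised it, and no pair raised it by their sum. Both flank peaks were named for their F statistic over the same groups, so their low p-values are in part a result of that choice. The B2m start peak, with values from -0.3 to 0.07, was called in none.

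Measured on cells that also received P, with PScG, PS, PcG and P in place of ScG, S, cG and control, no control library enters and the split in mitochondrial share is not crossed. The ScG interaction was then called at 3 members, all below the sum (all peaks 2.66% below and 1.38% above): the B2m flank peak (-0.74 ± 0.185, adjusted p = 0.00661), the Tapbp flank peak over Daxx (-0.54 ± 0.136, 0.007) and the Tapbp start peak (-0.66 ± 0.176, 0.0131). That at the H2-K1 start was -0.38 ± 0.156 and was not called (0.169). The LH interaction on P was called at 0 members by edgeR (0.419% below and 0.101% above; unadjusted 3 below and 2 above; DESeq2 was not run), with -0.06 ± 0.16 at the H2-K1 start. The difference between these interactions and those measured without P is the triplet interaction of PScG and of PLH, given with the triplets.

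**Figure D5:**
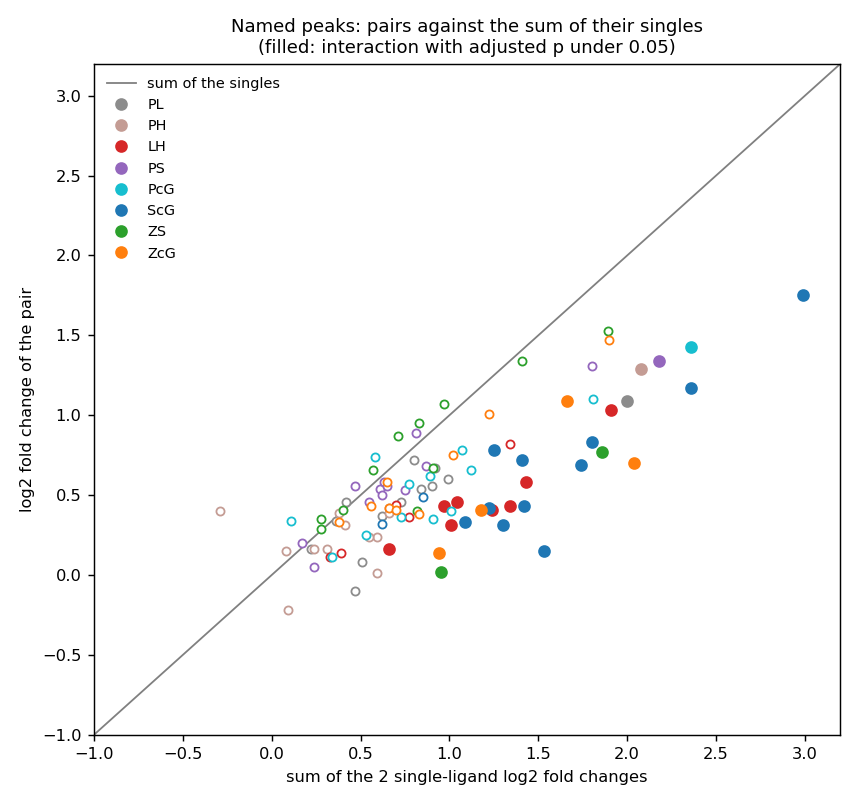
Log2 fold change of each pair against control (vertical) by the sum of the log2 fold changes of its 2 ligands (horizontal) for the 13 named peaks and 8 pairs, with filled points for an interaction with adjusted p under 0.05 and the line of equality. Of the 104 points 88 lie below the line, and all 29 filled points do. All points rest on the same control libraries, and the median interaction over all tested peaks was -0.03 to 0.02 by pair. Some of the 13 peaks were named for a high F statistic in these data.

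Few member peaks were called between triplets and their pairs, and few of all tested peaks. Over 9 comparisons, 6 of 639 tests were called higher and 0 lower (edgeR unadjusted 68 and 20, DESeq2 4 and 0). PLH gave 0 calls against PL (all peaks 0% higher and 0% lower). PScG gave 0 against PS (0.368% and 0.234%), PcG (0.201% and 0.21%) and ScG (2.11% and 2.43%), and ZScG gave 0 against ZS (0.0142% and 0.0444%). PScG against ScG and ZScG against ZS cross the split in mitochondrial share, so there the ligand and that share cannot be told apart. The peak inside Tap2 was higher in PLH than in PH (1.47 ± 0.29, adjusted p = 0.0021; all peaks 0.158% higher) and than in LH (1.13 ± 0.286, 0.0311; 0.337%). ZScG was higher than ZcG at the Tap1 and Psmb9 start (0.51 ± 0.127, 0.00952; 0.948%) and at a peak between Psmb8 and Tap2 (0.82 ± 0.211, 0.0137). It was higher than ScG at the H2-K1 start (0.42 ± 0.115, 0.0458; 0.324%) and at a second H2-K1 peak (1.76 ± 0.482, 0.0472). Without ZScG replicate 2, 2 of these 6 calls were counted. A triplet interaction, the part of the triplet's change that its single ligands and pairs do not sum to, was called at 3 of 213 tests, all above 0: the H2-K1 start in PLH (0.85 ± 0.228, 0.0421; all peaks 0.514% above), and in ZScG the B2m flank peak (1.4 ± 0.279, 0.000768; 0.974%) and the first Nlrc5 flank peak (1.44 ± 0.304, 0.00175). PScG gave 0 (all peaks 1.03% above and 0.972% below, edgeR unadjusted 10 above and 1 below, DESeq2 1 above). No triplet interaction balances the split in mitochondrial share, so the ligands and that share cannot be told apart. The count was 7 without the second control library and 5 without S replicate 2.

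Other genes of the pathway were counted in the same way, over peaks that overlap them or lie within 10 kb and that share no peak with the members. Of all tested peaks, 11.6% were higher and 11.6% lower with cG, 11.3% and 11.1% with L, 14.1% and 13.8% with S, and 11.1% and 9.41% with P. Of 78 tested peaks at 12 other class I heavy chain genes, 22 were called higher and 5 lower with cG, 21 and 0 with L, 19 and 4 with S, and 7 and 0 with P, and the median log2 fold change was 0.42, 0.63, 0.54 and 0.09. The peak with the lowest p near H2-Q6 and H2-Q7 had 1.02 with cG (adjusted p = 1.12e-13) and that near H2-T23, a nonclassical heavy chain, 0.98 (8.31e-09). At 3 other inducible proteasome genes, 5 of 7 peaks were higher with cG and 2 with P. The peak with the lowest p near Psmb10, the remaining inducible catalytic subunit, had 0.99 with cG (adjusted p = 1.29e-09). Of 43 peaks at 6 constitutive proteasome genes, 8 were higher and 3 lower with cG (median 0.25) and 3 and 2 with P, and of 55 peaks at 8 chaperone and peptide trimming genes, 11 and 4 with cG (median 0.18) and 3 and 3 with P.

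Regulators and class II neighbours were counted too, beside the same shares of all peaks. Of 128 peaks at 11 regulators of class I genes, 26 were higher and 14 lower with P, against 28 and 10 with cG. At Nfkb1, which encodes an NF-kappaB subunit, 17 of 46 peaks were higher with P. The peak with the lowest p had 3.99 with P (edgeR adjusted p = 8.27e-39) and 3.04 with cG. That peak was picked for each stimulation apart, so these values may come from different peaks. At Irf1, an interferon-induced transcription factor, 1 of 13 peaks was higher with P and 6 with cG. Of 51 peaks at 8 MHC class II genes near the members, 10 were higher and 0 lower with P (median 0.52), 12 and 0 with cG (0.48) and 28 and 0 with ZScG (0.85; all peaks 16.2% and 16.1%). No test compared these lists with the members.

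Over the 18 group means, Pearson's r between start peaks ran from 0.254 for H2-D1 and Nlrc5 to 0.884 for H2-D1 and Tapbp. It was 0.869 for H2-K1 and H2-D1 and 0.594 for B2m and Tap1. Low values were found for the Nlrc5 end peak (0.254 to 0.503 with the others) and also for Psmb8 with B2m (0.459) and with Tap2 (0.517). These values share libraries and depth and are a description. Among 15236 other peaks near protein-coding genes, those most like the Tap1 and Psmb9 start peak over the 18 means included peaks near Rtn2 (r = 0.917), Pik3r2 (0.915), Fam216a and Gpn3 (0.904) and Vwa3b (0.894). Those most like the B2m start peak were near Gm40011 (0.875), Tmem253 (0.859), Muc1 (0.857), Rbm12b2 (0.853) and Upf2 (0.838).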

How the data were processed

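The deposited table gives whole-number read counts for 119751 peaks in 36 ATAC-seq libraries, with no normalization by the authors. Per the submitters' processing notes, the tools were Bowtie2 2.2.9, MACS2 1.4 as listed there, bedtools and featureCounts, on mm10. Mapping filters and whether peaks were called on pooled libraries are not given in the sources used here. Groups follow the labels.

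The peak over the mitochondrial genome was left out of library sizes and tests, leaving 8181254 to 21985891 counts per library. A filter by group (minimum count 10) took out weakly covered peaks, libraries were scaled by TMM, and all 36 libraries entered 1 fit with 18 residual degrees of freedom in edgeR 4.0.16 (R 4.3.3, limma 3.58.1). Contrasts were tested by the quasi-likelihood test with Benjamini-Hochberg adjustment over 119464 peaks, calling at 0.05. Log2 fold changes carry the standard error from the F statistic, and CPM uses scaled library sizes. DESeq2 1.42.0, other scalings, filters, windows, thinning, a replicate block and left-out libraries were alternatives. The offsets by abundance, P as reference, and interactions measured on P were chosen after seeing the data. The script was tested on simulated data.

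Named peaks were, for each gene, that at the start site (for Tap2 and Nlrc5, whose strand was not in the tables used, the one nearest an end), that with the highest mean CPM and that with the highest F statistic over the 18 groups. The members and lists were chosen with earlier results of these data known. Promoters came from RefSeq. Some items that the rules name are not reported here.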

Additional observations from a re-analysis of the deposited data

Results flagged for a closer look

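Pair interactions, in which the change with a pair differed from the sum of the changes with its 2 ligands, were called at 23 of 71 member peaks in ScG (7.52% of all peaks were below the sum), 15 in LH (2.62%), 6 in ZcG (1.74%), 4 in ZS (2.61%), 2 in PL (4.2%), 2 in PS (2.91%), 2 in PcG (2.18%) and 1 in PH (1.09%), of which the last 4 are near or below the share of all peaks. These tests compare the effect of a ligand with and without the other, and all 55 were below the sum. The triplet interaction was called at 1 member peak in PLH (all peaks 0.514% above 0 and 0.27% below) and 2 in ZScG (0.974% and 0.921%), all above 0. Except for a partial balance in ZS, none of these pair and triplet interactions balances the split in mitochondrial share. The ligands and that share cannot be told apart there. Calls are from edgeR's quasi-likelihood test with Benjamini-Hochberg adjustment. The pair interactions share the control libraries, and 33 were called without the first. Interactions measured on cells that also received P use no control library and do not cross the split in mitochondrial share. The ScG interaction was then called at 3 members, all below the sum (all peaks 2.66% below and 1.38% above). The LH interaction was called at 0 (all peaks 0.419% below and 0.101% above, unadjusted 3 below and 2 above, DESeq2 was not run). Both counts are near the shares of all peaks.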

How the results depend on the processing

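With 2 libraries a group, single libraries limited the counts. The shares of tested member peaks called against control, in percent, ranged with 1 library left out at a time from 5.48 to 8.22 in P, 16.4 to 30.6 in L, 5.48 to 16.4 in H, 24.7 to 37.5 in S, 26.0 to 38.4 in cG, 2.74 to 6.85 in Z, 16.4 to 24.7 in PL, 8.22 to 16.4 in PH, 12.3 to 21.9 in LH, 21.9 to 30.1 in PS, 20.5 to 32.9 in PcG, 19.2 to 28.8 in ScG, 27.4 to 39.7 in ZS, 16.4 to 21.9 in ZcG, 17.8 to 30.1 in PLH, 24.7 to 35.6 in PScG and 27.4 to 39.7 in ZScG. The calls of pairs against single ligands ranged from 84 to 107, of pair interactions from 33 to 58, of triplets against pairs from 2 to 7 and of triplet interactions from 2 to 7. Total count scaling shifted all log2 fold changes by -0.06 to 0.43 and gave 18.3% in P, 59.2% in L, 43.7% in H, 46.5% in PL, 29.6% in PH, 52.1% in PS, 56.3% in PcG, 108 pair interactions, 15 triplet against pair calls and 32 triplet interactions, and it turned the B2m start peak in P from -0.01 to 0.31 (edgeR, adjusted p = 0.0364). Thinning to 1 depth gave 10.0% in H, 18.6% in PL, 18.6% in ZcG, 65 pair against single calls, 31 pair interactions and 0 triplet against pair calls. Fitting only the groups compared gave 11.1% in Z, and P as reference gave 25.4% in L. The cause was not tested. DESeq2, RLE scaling, offsets by abundance, no filter, a minimum count of 30, the mitochondrial peak in library sizes and narrower windows left all shares and counts within 1.5 times.

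Samples with the same replicate number did not deviate together (correlations of -0.04 to 0.03 over 153 pairs of groups), so the numbers were not taken to pair them. With the replicate block, 56 pair interactions were called, no count moved by over 1.5 times and none of 221 named-peak results changed its call.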
